A study of Mus musculus with 18 samples.

Results

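The interferon-inducible GTPases described here were 10 genes, the guanylate-binding protein (GBP) genes Gbp2, Gbp3, Gbp4, Gbp5, Gbp6 and Gbp7 and the immunity-related GTPase (IRG) genes Irgm1, Irgm2, Igtp and Iigp1, out of 21938 protein-coding genes in the GENCODE M21 annotation of the mm10 mouse genome. The accessible chromatin assigned to them lay in their gene bodies or within 50 kb of their most upstream start site. This rule took 73 of 82391 reference peaks, 75 of 84660 summits and 45 of 59617 extended regions. Genes that share a cluster also share peaks, so these are counts of distinct entries.

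Accessibility had been measured by ATAC-seq, in which the Tn5 transposase tags exposed DNA, in macrophages differentiated from bone marrow (BMDMs), whose donors were wild type and, by the study's methods, male C57/BL6 mice. All cells were given the vehicle DMSO for 1 h and were then left untreated or stimulated with LPS or IL-4, each at 10 ng/mL, for 30 min, 1 h, 2 h or 4 h. This made 9 groups of 2 libraries (18 libraries), with 4 groups for LPS, 4 for IL-4 and 1 left untreated. The processed lists pool all libraries and have no column per library, so that levels per group, the effect of either stimulus, the spread between libraries and their depth were not analysed here.

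GBPs and IRGs are large GTPases of the dynamin type that are induced by interferons and that collect on the vacuoles of parasites and bacteria, where they damage the vacuole or mark it for destruction. GBPs also bind bacteria in the cytosol and promote inflammasome activation. The interferon signal reaches such genes through short DNA elements. The interferon-stimulated response element (ISRE) is bound by proteins of the IRF family, and the gamma-activated site (GAS) is named for its response to interferon gamma. In macrophages LPS leads to secretion of interferon beta, which then acts on the same cells.

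The peaks at the members' start sites were examined first, and selected stretches with an ISRE or a GAS are shown for 7 of the 8 members with a start site peak, because an ISRE was found at each of the 8. ISRE was searched as GAAANNGAAA and GAS as TTCNNNGAA, on both strands and within 100 bp of a summit. The patterns can overlap, since both may use the same GAA, and the PU.1-IRF composite GGAANNGAAA can use bases of both. Sequences are from the mm10 genome, written 5' to 3' on the strand of the gene, with ISRE and GAS letters in capitals. On the opposite strand an ISRE reads TTTCNNTTTC. Positions are those of the middle of a match relative to an annotated start site, with negative values upstream.

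The GBP genes on chromosome 3 contributed the following stretches, which lie at chr3:142620594-142620623 for Gbp2, chr3:142559979-142560025 for the upstream and chr3:142560525-142560554 for the downstream peak of Gbp3, chr3:142496749-142496899 for Gbp5 and chr3:142530210-142530312 for Gbp7.
Gbp2: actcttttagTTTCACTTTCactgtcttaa
Gbp3 upstream: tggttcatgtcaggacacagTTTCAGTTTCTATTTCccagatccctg
Gbp3 downstream: aggagcatggTTTCGATTTCagttcctttt
Gbp5: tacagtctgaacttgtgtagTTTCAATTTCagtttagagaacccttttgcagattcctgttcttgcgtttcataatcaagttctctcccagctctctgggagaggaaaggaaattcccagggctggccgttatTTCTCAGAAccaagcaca
Gbp7: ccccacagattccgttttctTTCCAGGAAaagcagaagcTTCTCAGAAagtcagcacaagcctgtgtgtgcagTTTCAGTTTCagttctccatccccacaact

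The IRG genes on chromosome 11 contributed stretches at chr11:48871428-48871457 for the peak of Irgm1 at its start sites and chr11:48872411-48872460 for its upstream peak (both minus strand), chr11:58199491-58199551 for Igtp and chr11:58214882-58214942 for Irgm2.
Irgm1 start site: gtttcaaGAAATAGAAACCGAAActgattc
Irgm1 upstream: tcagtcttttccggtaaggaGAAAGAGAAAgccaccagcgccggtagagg
Igtp: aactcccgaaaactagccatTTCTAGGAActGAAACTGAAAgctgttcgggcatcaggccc
Irgm2: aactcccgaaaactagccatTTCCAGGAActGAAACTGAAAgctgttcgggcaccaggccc

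A reference peak within 1000 bp of an annotated start site was found for 8 of 10 members, as compared to 56.5% of all protein-coding genes. Gbp4 and Gbp6 had none. All 8 members with such a peak had an ISRE within 100 bp of a start site summit, whereas 4.71% of the 12321 protein-coding genes with a start site summit did. A GAS was found in the same way for 5 of the 8 members, namely Gbp5, Gbp7, Irgm2, Igtp and Iigp1, against 8.49% of the genes. Gbp2, Gbp3 and Irgm1 had an ISRE without a GAS. These calls depended on the window, since within 200 bp Gbp3 and Irgm1 also had a GAS (7 of 8 members; all genes 15.5%), and within 50 bp Gbp2 and Iigp1 had no ISRE (6 of 8 had one; all genes 2.59%) and Iigp1 no GAS (4 of 8 had one; all genes 4.37%). Because the lists are pooled and neighbouring members derive from duplicated genes, these shares are descriptions and no test was made.

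**Figure D1:**
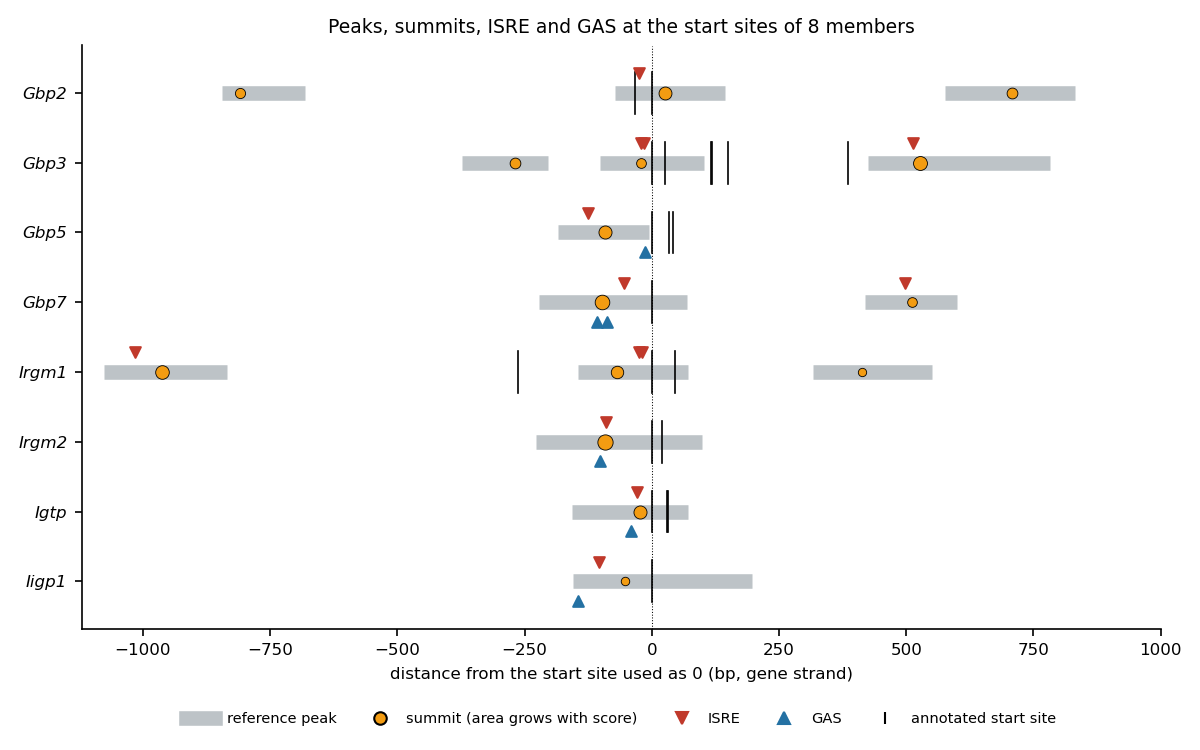
Reference peaks (grey bars), summits (circles whose area grows with the score), ISRE (red) and GAS (blue) at the start sites of the 8 members with a start site peak, against the distance in bp from 1 annotated start site per gene (0 on the axis, gene strand; black ticks are annotated start sites). Each row holds at least 1 ISRE, and the rows of Gbp5, Gbp7, Irgm2, Igtp and Iigp1 also hold GAS. Start sites and peaks far from 0 lie outside the axis and are not drawn. Among them are the peaks at the most upstream start site of Gbp5 and the start site of Irgm2 beside Igtp. The most downstream start site of Gbp3 with its peak and the upstream start sites of Iigp1 are also missing.

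Among the GBP genes, Gbp7 had the best scored start site. The score is the authors' value for each summit in the merged call, its scale is not stated, and it serves here only to rank summits. Gbp7, whose product takes part in assembling the NADPH oxidase on phagosomes, had a summit of score 1568 at -97 with an ISRE at -54 and 2 GAS at -108 and -89. A second, weaker summit of score 467 at 511 bp downstream had an ISRE at 498. The upstream ISRE and both GAS of Gbp7 lay within 1 peak of 292 bp, and the downstream ISRE lay in a separate peak of 181 bp.

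Gbp3 had 4 peaks at its 7 annotated start sites. The best scored one lay within the gene, with a summit of score 1381 at 142 bp downstream of the nearest start site and an ISRE at 129. The peak over the most upstream start site scored only 476 although it contained 2 overlapping ISRE at -22 and -16. The other summits scored 664 and 706 and had neither motif. For Gbp3, the start site with the tandem ISRE was therefore the lowest scored of the 4.

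Gbp2, which is recruited to bacterial and parasite vacuoles, had 3 start site peaks. Its best summit scored 1141, and the ISRE lay at -26 of the downstream of its 2 annotated start sites, which is 7 bp inside the transcript of the upstream one. The flanking summits scored 554 and 675 and had neither motif. A further summit of score 1048 lay 1792 bp upstream of the first start site, in an exon of the neighbouring gene Gbp2b, which had no peak at its own start site.

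Gbp5, which promotes assembly of the NLRP3 inflammasome, had its best summit not at the most upstream start site but at the start of its first protein-coding transcript, 2922 bp further into the gene. This summit scored 1176 at -92, with an ISRE at -126, a GAS at -14 and, between them, a match to the NF-kB motif at -38, all inside a single peak of 180 bp. The only NF-kB match within 100 bp of any member's start site summit was this one. The most upstream start site had summits of score 990 and 573, of which the second had a GAS at 165 and neither had an ISRE.

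Irgm2 had the best scored summit of all members, 1747 at -92 of the first of its paired downstream start sites, which was percentile 94.2 of all summits. Irgm2 and Igtp, also called Irgm3, belong with Irgm1 to the regulatory IRG proteins that sit on host membranes and keep the effector IRGs inactive there. The summit of Igtp scored 1176 and lay at -23. Another annotated transcript of Irgm2 starts 62 bp downstream of the first start site of Igtp, so that the Igtp peak is also counted for Irgm2. The 2 start site regions were alike in sequence, as the lines above show, with 213 of 231 aligned bases identical (92.2%) in the windows from 250 bp upstream to 50 bp downstream. In both, 2 bases separated the GAS from the ISRE.

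The position of the GAS and ISRE depended on the start site. They lay at -41 (GAS) and -29 (ISRE) from the first start site of Igtp and at -71 and -59 from the next one, and at -102 and -90 from the first of the paired start sites of Irgm2. From the RefSeq starts they lay at -41 and -29 in Igtp and at -71 and -59 in Irgm2. With 1 such window per member, at the start site nearest its best scored summit (or the most upstream one where it had none), only 1 other pair aligned over more than 100 bases, namely Gbp4 and Gbp6 with 188 of 225 bases identical (83.6%). The windows of Gbp3 and Irgm1 used there did not hold their ISRE.

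Irgm1, which is required for resistance to intracellular bacteria and for autophagy, had 3 start site summits. The best scored, 1308, lay at -699 from the most upstream start site, with an ISRE at -752. The bases of this ISRE overlap a match to the ISRE letters in reversed order (AAAGNNAAAG), which were counted as a control of base composition. The one over the start sites scored 1025 at -68 and contained 2 overlapping ISRE at -25 and -19. The third scored 242 and had neither motif. The tandem arrangement at the start site was shared with Gbp3, and among the 8 members only these 2 had it.

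Iigp1, also called Irga6, is an effector IRG that coats the vacuole of Toxoplasma gondii. It was the exception among the members with a peak. Its 4 upstream start sites had no peak within 1000 bp, and the nearest reference peak was 5247 to 5267 bp away. The only start site peak lay at an internal start, with a summit of score 266 at -53, an ISRE at -103 and a GAS at -146. That score was at percentile 0.219 of the genes with a start site summit. The windows of the upstream starts held 2 ISRE and 1 GAS each, so ISRE letters were present there without a listed peak. Counting only the most upstream start site of each gene, 7 of 10 members had a start site peak, against 52.1% of all genes.

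Gbp4 and Gbp6, on chromosome 5, had no peak at any of their annotated start sites (5 and 3). The nearest reference peak was 28671 to 28717 bp from the start sites of Gbp4 and 51460 to 51474 bp from those of Gbp6. The 3 peaks counted for Gbp4 all lay over Gbp8 and Gbp9, and the 2 better scored ones (856 and 654) lay within 1000 bp of an internal start site of Gbp9. The windows from 250 bp upstream to 50 bp downstream of their start sites contained neither ISRE nor GAS. Gbp4 and Gbp6 were the only members without either, since an ISRE was present in such a window for 8 of 10 members and for 10.0% of all protein-coding genes, and a GAS for 5 of 10 members and for 20.4% of genes. Across all genes, 67.8% of the 2197 with an ISRE in this window had a start site peak. Within 1000 bp around the most upstream start site Gbp4 had 1 ISRE and 1 GAS, and Gbp6 had 0 of both, while 22.9% of all genes had an ISRE and 45.4% a GAS in such a window.

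Because the placement of reads can depend on how often a sequence occurs in the genome, the number of copies was counted. The 76 bases centred on the summit, the read length, occurred once in the genome at 75 of 75 member summits, and the central 38 bases occurred once at 69. Of the 76-base stretches within 1000 bp around the most upstream start site, 91.2% occurred once for Gbp4, 91.7% for Gbp6 and 93.7% for Iigp1. The value was 89.9% for Igtp, which had a start site peak, and 100% for Gbp2, Gbp3, Gbp5, Gbp7 and Irgm1. With 38-base stretches the values were 67.2%, 76.0% and 74.1% for Gbp4, Gbp6 and Iigp1, and 79.6% for Igtp. The part of repeated sequence in the lack of peaks at Gbp4 and Gbp6 was not tested.

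RefSeq promoter sequences (GRCm38.p6, 250 bases before to 50 after the start) were found for 7 of 10 members, with 2 entries for Gbp3. Gbp4, Gbp6 and Iigp1 had no entry. An ISRE was present in 7 of the 8 promoters, as compared to 3.44% of the 32851 promoters in the table, and a GAS in 4 (all promoters 8.30%). The same letters in reversed order, which keep the base composition, were present in 0 of the 8 for either motif (all promoters 3.08% for ISRE and 9.22% for GAS). None of the 8 had the TATA box letters TATAAA in the usual place (all promoters 1.99%). Their CpG observed over expected ratio had a median of 0.335, close to the median of 0.384 over all promoters (interquartile range 0.176 to 0.750).

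The start site scores of the members lay in the lower to middle part of the range. Over the 8 members the median of the best start site score was 1242, and over the 12321 genes it was 1456 (interquartile range 1070 to 1800). Irgm2 and Gbp7 were above the median of all genes, at percentiles 71.2 and 58.0. Gbp3 (percentile 45.2), Irgm1 (40.3), Gbp5 and Igtp (both 31.7), Gbp2 (29.4) and Iigp1 were below it. Among the members the order was Irgm2, Gbp7, Gbp3, Irgm1, Gbp5 and Igtp with equal scores, Gbp2 and Iigp1, and without values per library it cannot be said which neighbours in this order differ.

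**Figure D2:**
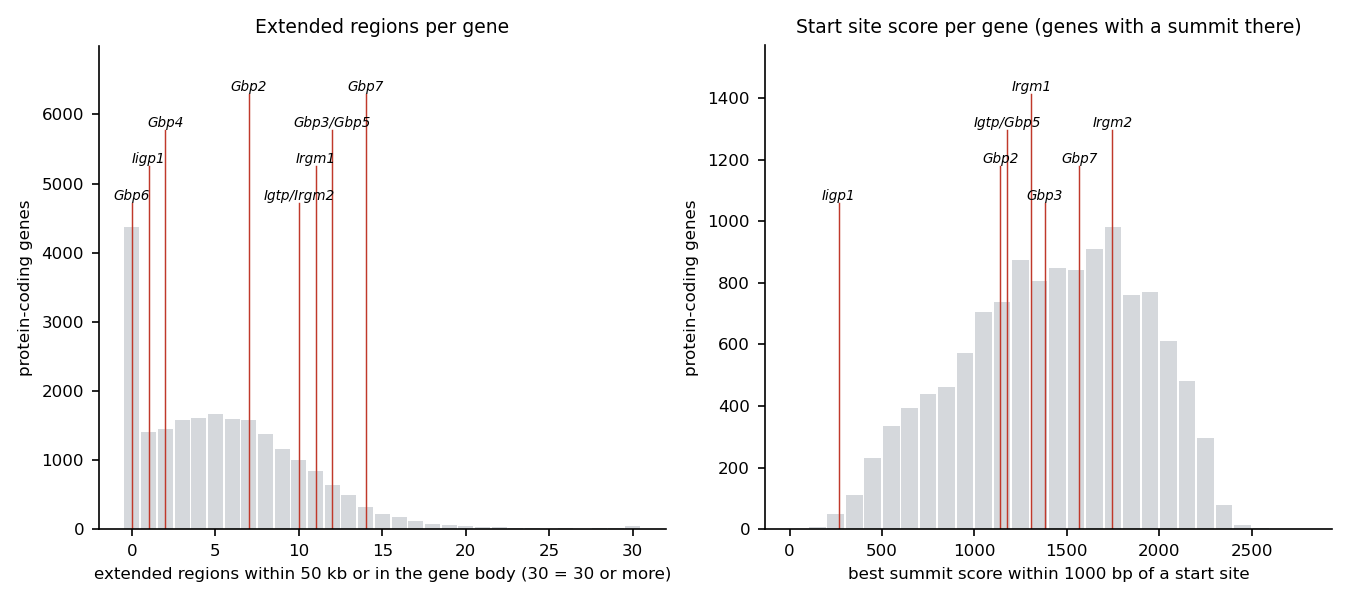
Left, extended regions in the gene body or within 50 kb of the most upstream start site per protein-coding gene (grey bars, number of genes; 30 stands for 30 or more). Right, best summit score within 1000 bp of a start site for the 12321 genes with a summit there (grey bars, number of genes; score in the authors' units). Red lines mark the members; Gbp7 has the most extended regions of them with 14 and Gbp6 has 0, and Irgm2 has the best start site score with 1747 and Iigp1 the lowest with 266.

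The surroundings of the genes were compared next. The members had a median of 12 reference peaks and 10 extended regions, whereas all protein-coding genes had a median of 6 and 5 (interquartile ranges 1 to 12 and 1 to 8). The range among members was wide, from 0 extended regions for Gbp6 to 14 for Gbp7 (percentile 95.3). Gbp3 and Gbp5 had 12, Irgm1 11, Irgm2 and Igtp 10, Gbp2 7, Gbp4 2 and Iigp1 1. Members of 1 cluster share these regions, and Irgm2 and Igtp have the same 12 peaks.

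By locus, the density of reference peaks separated the members into a dense and a sparse set. The Irgm1 locus (chr11:48821683-48921683) had 22 peaks, or 22 per 100 kb, the GBP cluster on chromosome 3 (chr3:142443978-142670602) had 34, or 15 per 100 kb, and the Igtp and Irgm2 locus (chr11:58149556-58249618) had 12, or 12 per 100 kb. The average of the genome outside assembly gaps was 3.11 per 100 kb. The loci of Gbp4 (chr5:105089586-105189586) with 3 per 100 kb, Iigp1 (chr18:60326027-60426027) with 2 and Gbp6 (chr5:105243698-105343698) with 0 were at or below this average. The sparse loci also had the most repeated sequence, with 88.9%, 79.6% and 81.5% of their 76-base stretches occurring once, against 93.9% to 97.5% in the dense loci, and its part in the sparseness was not tested.

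**Figure D3:**
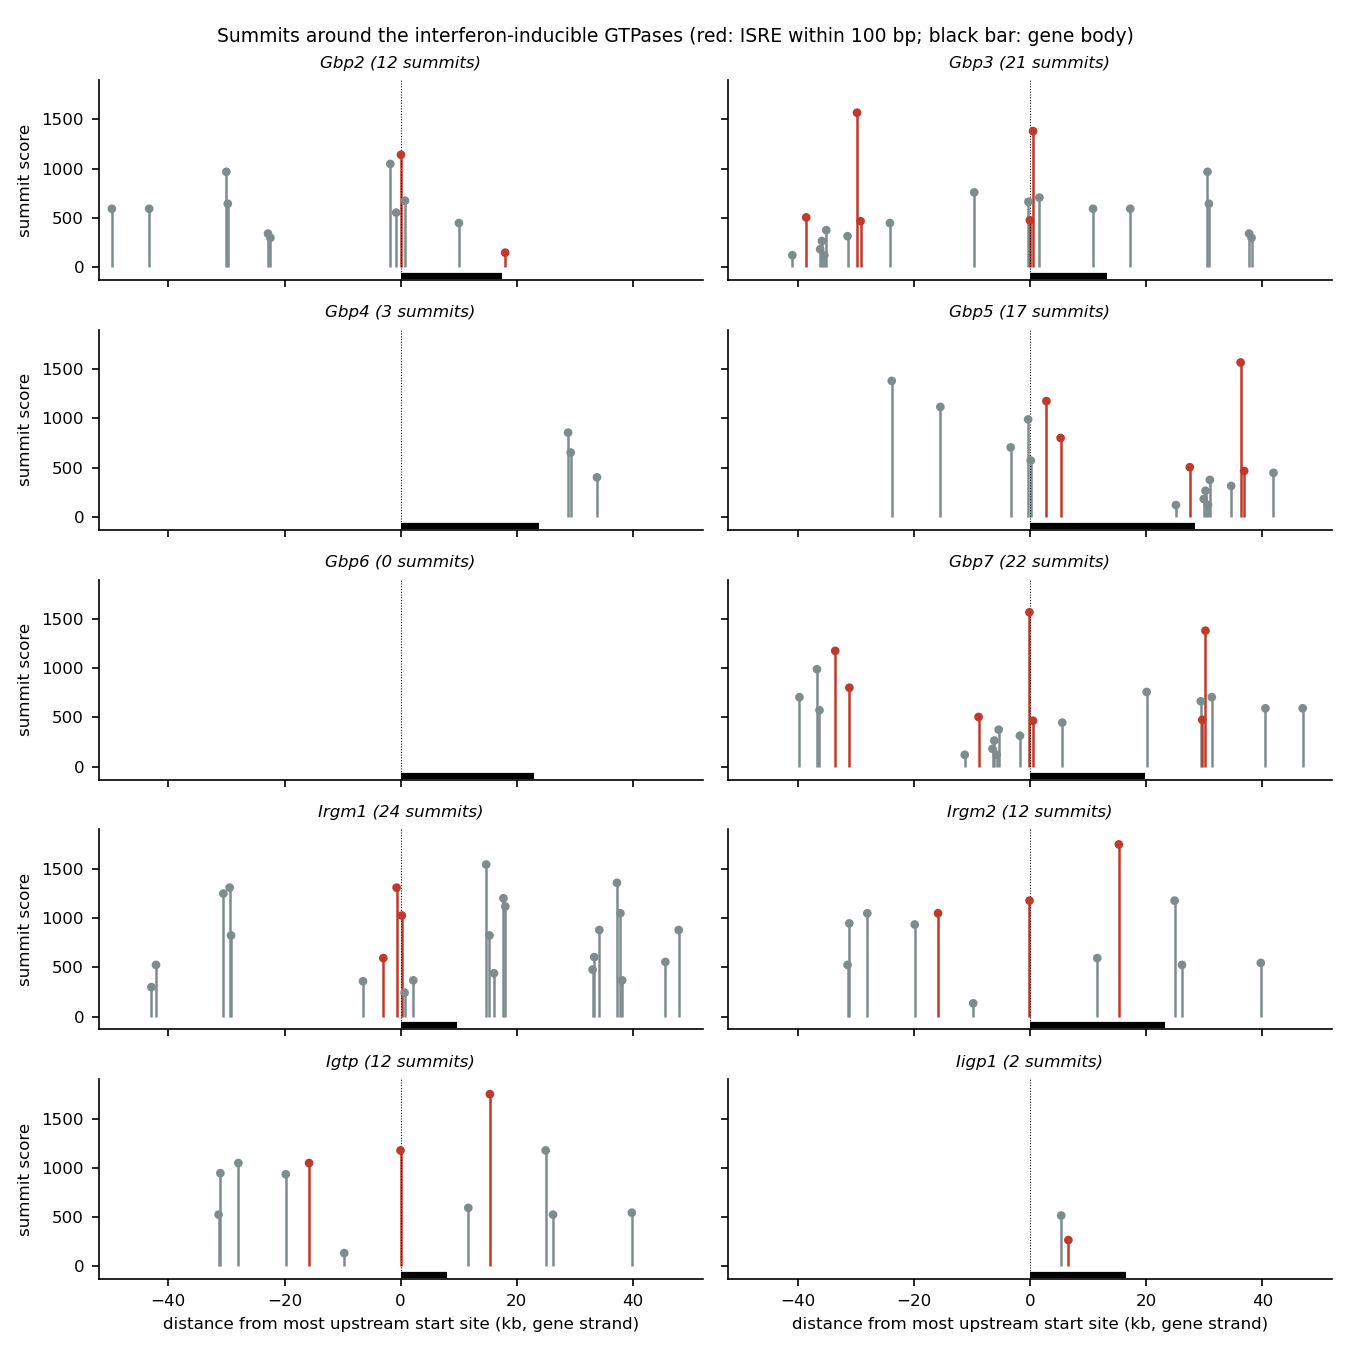
Summits around each member against the distance in kb from its most upstream start site (x axis, gene strand, dotted line at 0), with the height showing the summit score in the authors' units. Red summits have an ISRE within 100 bp, grey ones do not, and the black bar is the gene body. Irgm1 has 24 summits, Gbp7 22 and Gbp6 0; the panels of Irgm2 and Igtp show the same 12 summits because their most upstream start sites are close together.

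Of the 75 summits, 30 (40.0%) lay within 1000 bp of a start site of any gene, as compared to 29.3% of all summits. The rule itself favours such summits, since each window is centred on a start site, and 18 of the 30 lay at the members' own start sites. The difference between these shares is therefore not a result about the members. Intergenic summits made up 33.3% (25; all summits 26.8%), introns 20.0% (15; all 40.0%) and exons 6.67% (5; all 3.90%). The median score was 644 around the members and 737 over all summits. Other genes accounted for 12 of the 30 start site summits. Their nearest start sites were those of Trim7, Gm5431, Gemin5, Mrpl22, Gbp9 and the noncoding antisense gene Gm16170. Gm12184 starts beside Trim7, and Gbp2b, Gbp8 and Gm43302 start inside the windows without a start site peak.

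The best scored summits away from the members' start sites were 1543 in the Irgm1 locus, 14411 bp downstream of the nearest Irgm1 start site and 3470 bp from Gm16170, and 1381 in the GBP cluster, 23805 bp upstream of Gbp5. Neither contained ISRE or GAS letters within 100 bp. Together with the start site summits of Irgm2, Gbp7 and Gbp3 they were the 5 best scored around the members.

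ISRE letters were present within 100 bp of 16 of the 75 summits (21.3%, 95% Wilson interval 13.6% to 31.9%, which covers counting error only and takes the summits as independent), as compared to 3.64% of all summits. GAS letters were present at 7 (9.33%), against 6.35%. The letters of ISRE in reversed order were present at 3 (4.00%; all summits 2.33%) and those of GAS at 4 (5.33%; all 6.84%). The interval of the GAS share, 4.59% to 18%, contained the share of all summits, and that of ISRE lay above it.

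The ISRE were concentrated at the members' own start sites. They were present at 11 of the 18 summits there (61.1%), at 0 of the 12 start site summits of other genes in the same windows (all start site summits 2.78%) and at 5 of the 45 remaining summits (11.1%; all summits away from start sites 3.99%). GAS was present at 6 of the 18 (33.3%), at 0 of the 12 (all start site summits 4.75%) and at 1 of the 45 (2.22%; all summits away from start sites 7.02%). With 12 summits, 0 allows a share of up to 25.0%, which again covers counting error only and contains both shares of all start site summits.

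The 5 ISRE summits away from start sites lay 15773 bp upstream of Igtp (score 1048), in an intron of Gbp5, 2304 bp downstream of its nearest start site (802), 2991 bp upstream of Irgm1 (593), 8848 bp upstream of Gbp7 in an exon of Gbp5 (505) and beyond the 3' end of Gbp2, 17960 bp from its nearest start site (147). The one upstream of Igtp, which was chosen for display after its values were seen because it had the most matches, held 2 ISRE with a GAS between them. It lay 3956 bp upstream of Gm12250, an IRG family gene that the annotation lists as a processed pseudogene and that had no peak within 1000 bp of its own start site. The stretch is at chr11:58183732-58183826, shown on the plus strand.
Igtp upstream element: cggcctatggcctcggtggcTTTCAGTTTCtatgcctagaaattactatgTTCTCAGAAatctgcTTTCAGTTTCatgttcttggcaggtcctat

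Letters of other macrophage factors were counted in the same windows. The AP-1 motif TGANTCA was present at 15 of the 75 summits (20.0%; all 19.4%), the SP/KLF motif GGGCGGGG at 6 (8%; all 7.15%), the PU.1-IRF composite GGAANNGAAA at 5 (6.67%; all 4.61%) and the NF-kB motif at 3 (4.00%; all 5.55%). The PU.1 motif GAGGAAGT was present at 4 (5.33%; all 9.08%), the C/EBP motif TTGCNNAAT at 2 (2.67%; all 3.08%), the RUNX motif AACCACA at 2 (2.67%; all 7.91%) and the CTCF core at 1 (1.33%; all 4.05%). The interval of each of these shares contained the share of all summits. At the 30 start site summits alone, the PU.1-IRF composite was present at 5 (16.7%; all start site summits 2.84%) and AP-1 at 7 (23.3%; all 9.35%). The other motifs were near or below the share of all start site summits. SP/KLF was present at 4 (13.3%; all 20.0%), NF-kB at 2 (6.67%; all 5.08%), PU.1 at 1 (3.33%; all 5.08%) and CTCF at 1 (3.33%; all 4.09%). C/EBP and RUNX were present at 0 (all 1.66% and 4.40%). By gene, the composite was found at start site summits of 4 of 8 members, namely Gbp3, Gbp5, Igtp and Irgm2, against 4.89% of the genes. In Gbp3 (at 135), Igtp (-35) and Irgm2 (-96 at its best summit) it used bases of the ISRE. In Igtp and Irgm2 it also used bases of the GAS. These matches are therefore not separate from the ISRE and GAS counted above, and only that of Gbp5 (-43) lay apart from both. The SP/KLF motif was found for 2 of 8 members (all genes 38.1%) and the PU.1 motif for 0 (all 8.14%).

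**Figure D4:**
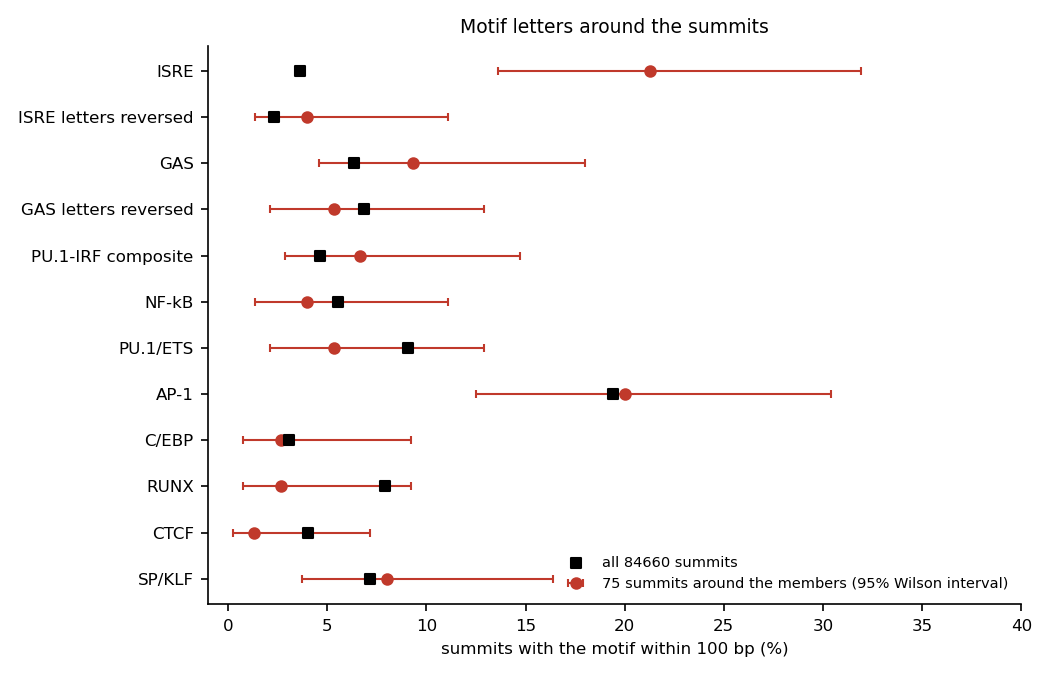
Percent of summits with motif letters within 100 bp, for the 75 summits around the members (red, with 95% Wilson intervals) and all 84660 summits (black squares). For ISRE the member share of 21.3% and its interval lie above the 3.64% of all summits, and for the other motifs the interval contains the share of all summits.

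Other genes of the pathway were read from lists chosen by their function. Of 22 further GTPase genes of the same or related families, 13 (59.1%, near the 56.5% of all protein-coding genes) had a start site peak and 9 had none, namely Gbp2b, Gbp8, Gbp10, Gbp11, Gm12185, Tgtp2, Gm12250, Gm4841 and F830016B08Rik. The 3 best scored were Atl2, Atl3 and Atl1, the atlastins, which are GTPases that shape the endoplasmic reticulum and are not known as interferon-induced. A start site ISRE was present in 4 of these 13 genes and a GAS in 3 (all genes with a start site summit 4.71% and 8.49%, for this and the following lists). Some of these genes had much repeated sequence at their start. Of the 76-base stretches there, 6.33% occurred once for 9930111J21Rik1, 6.44% for 9930111J21Rik2 and 7.22% for Gvin1, which all had a start site peak, and 57.4% for Tgtp2, which had none.

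Genes of interferon signalling comprised Ifnb1, Ifng, interferon receptors, Janus kinases, STAT and IRF factors, the LPS receptor, Ticam1, Tbk1 and Nlrc5. They had a start site peak in 20 of 21 cases, with Ifng, the gene of interferon gamma, as the exception. The share of all protein-coding genes, 56.5%, applies to this and the following lists. Their best scored start sites were those of Tyk2, Ifngr1 and Ticam1. An ISRE was present in 3 of the 20 and a GAS in 8. The partners of the GTPases in vacuole targeting, autophagy and inflammasome activation had a start site peak in 14 of 14 cases, led by Atg16l1, Aim2 and Atg3, with an ISRE in 1 and a GAS in 2. Antiviral interferon-stimulated genes had one in 20 of 20 cases, led by Mx2, Bst2 and Ifit3, with an ISRE in 16 and a GAS in 3. Side by side, the members and the antiviral genes were the lists in which most genes with a start site summit had an ISRE. A GAS was found in 5 of 8 members (62.5%), 8 of 20 signalling genes (40.0%) and 3 of 20 antiviral genes (15%), against 8.49% of all genes.

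The labelled cell type was checked with marker genes. A start site peak was present in 10 of 10 macrophage markers, including Adgre1 and Csf1r, and in 2 of 12 markers of other cells, namely Pecam1 and Col1a1 (all protein-coding genes 56.5%). A start site ISRE was present in 0 of the 10 macrophage markers, near the 4.71% of all genes. A GAS was present in 2 of the 10 (20.0%; all genes 8.49%).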

How the data were processed

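The authors made 18 ATAC-seq libraries, 2 for each of 9 groups of BMDMs, and sequenced them as single-end reads. Per the study's methods and the submitters' processing notes, adapters were removed with BBDuk, reads were trimmed with Trimmomatic 0.39 and mapped to mm10 with the mapping step of ShortStack (version not given in the sources used here), filtered with SAMtools 1.9, and peaks were called with MACS2 2.2.6 with duplicates kept. The study's reference set was limited to peaks that passed a q-value cutoff and overlapped between the replicates. Summits may be offset from the Tn5 cuts, as no read shift is named, and kept duplicates can raise a peak.

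The deposited lists hold positions of reference peaks, extended regions and summits, and a score per summit that the authors deposited on a scale not stated. They are pooled over all libraries, 0 columns belonged to other samples, and the depth of the libraries is unknown, so no test, SD or depth is given. All list entries ended inside the chromosomes of GRCm38.p6 (21 of 21), whose coordinates are those of mm10.

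Start sites and genes were taken from GENCODE M21 (all 10 members matched). Overlaps, motif matches and the number of copies of 76-base and 38-base stretches on both strands were computed with Python 3.11.15, numpy 2.4.6 and pandas 2.3.3, intervals with scipy 1.17.1 and local alignments with Biopython 1.88. The overlaps, motif matches and copy counts were tested on simulated data, and the intervals and alignments were not. Alternatives comprised windows of 500 or 2500 bp for start sites, 20000 or 100000 bp for genes and 50 or 200 bp for summits, fewer start sites or summits, and other motif letters. The members and the gene lists were chosen with earlier results of these data known. The text names all members, listed genes that lack a start site peak (or have one, where most lack it), the 3 best scored of each pathway list, the 5 best scored summits and other protein-coding genes starting in the windows (of noncoding genes there, only those a result refers to).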

Additional observations from a re-analysis of the deposited data

How the results depend on the processing

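Of 33 alternatives over 8 results, 25 left the value within 1.5 times (counts) or within its Wilson interval (percentages) or at the same median score, and 8 did not. Counting within 20000 bp gave 46 reference peaks around the members, and keeping extended regions with a summit at or above the median score gave 25. The median best start site score of the members was 1158.5 with the summit closest to a start site (all genes 1308) and 1176 within 500 bp (all genes 1443). The share of member summits with ISRE was 12% when a C had to follow the ISRE letters (all summits 1.18%). The share with GAS was 21.3% with 200 bp windows (all 12.1%), 4.00% with TTC and GAA 4 bases apart (all 6.81%) and 2.67% for TTCC and GGAA 1 base apart (all 0.871%). The cause of these differences was not tested, except that smaller windows and fewer regions hold fewer entries.

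No paired analysis was possible because the lists are pooled and carry no replicate numbers, and for the same reason no replicate was left out. Accessibility in untreated, LPS-treated and IL-4-treated cells cannot be told apart in these lists. A member without a listed peak is not shown to be inaccessible, since the study's reference set holds only peaks that passed a q-value cutoff and overlapped between replicates. Motif letters are not evidence of binding.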
